A study of Mus musculus with 9 samples.

Results

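Histone-modifying enzymes, readers of histone marks and chromatin remodelers were followed at the RNA level after BV2 cells, a mouse microglia line that was immortalized in culture, received bacterial lipopolysaccharide (LPS), and RNA was sequenced. The genes were chosen by their symbols: those beginning with Kmt, Setd, Nsd, Ehmt, Kdm, Hdac, Smarc, Arid or Brd, or with Kat or Chd and a digit, and with a mean level of at least 1 FPKM (fragments scaled to transcript length and library size) over the 9 libraries. Of 6462 listed genes 57 matched by name. Among these, Arid3b, Brdt, Chd5, Hdac7, Hdac8 and Setd4 lay below the level filter and Kdm3a was left out by the rule, which leaves 50 members: 13 writers, 11 erasers, 5 readers, 16 remodelers and 5 further ARID proteins. No symbol beginning with Nsd was in the table. Cells received LPS at 200 ng/ml for 1 h or 12 h, or were untreated (0 h), with 3 libraries in each group. BV2 is 1 cell line, and untreated cells were sampled at 0 h alone, so the effect of LPS and that of time in culture cannot be told apart. The authors' table holds genes selected on a difference among these same libraries, so each count below describes genes already chosen to differ.

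DNA in the nucleus is wound on histones, and the tails of histones carry methyl and acetyl groups that mark active and silent regions. Writers add these groups, erasers remove them, readers such as bromodomain proteins bind acetylated lysines, and remodelers use ATP to slide or evict nucleosomes. In macrophages, which share many LPS responses with microglia, several of these proteins are known to govern which inflammatory genes can be induced and for how long.

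The libraries of a group were alike, with Pearson correlations of log2(FPKM + 1) across genes from 0.9981 to 0.9986, against 0.9241 to 0.9698 between groups. The table gives no counts, so absolute depth is unknown. The steps between low FPKM values put the other 8 libraries at 1.09 to 1.17 times the depth of untreated library 1. That is a rough estimate, from 11 to 33 genes each, which were 5.88 to 15.6% of the low genes compared. Of 14 microglial markers 10 were in the table, and the summed level ran between 1172 and 1262 FPKM in untreated cells, between 1134 and 1169 at 1 h and between 1038 and 1083 at 12 h. Csf1r, the receptor for colony-stimulating factor 1, averaged 47.5 ± 1.03 FPKM at 12 h and 66.1 ± 2.76 in untreated cells (SD, n = 3 each, as throughout). P2ry12, a receptor that defines resting microglia in brain, averaged 0.219 ± 0.0564 and 1.24 ± 0.336 FPKM in the same groups. Trem2 averaged 47.5 ± 1.80 FPKM at 12 h and 90.5 ± 2.68 in untreated cells, and Tyrobp 412 ± 15.2 and 560 ± 30.5 FPKM. Also lower at 12 h than in untreated cells were Cx3cr1 (3.93 and 6.27 FPKM), Fcrls (0.138 and 0.922) and C1qa (0.0738 and 0.628). The remaining markers in the table went the other way or stayed level. Itgam, which encodes CD11b, averaged 70.3 ± 2.43 FPKM at 12 h and 27.9 ± 0.696 in untreated cells. Spi1, which encodes the myeloid factor PU.1, averaged 89.3 ± 1.31 FPKM at 12 h and 62.7 ± 1.63 in untreated cells, and the lysosomal gene Cd68 391 ± 6.14 and 391 ± 14.7 FPKM. None of 6 astrocyte and none of 6 neuron markers was in the table, and of 6 oligodendrocyte markers only Olig2 was, with at most 0.0841 FPKM in any library. The part of these marker levels in the results below was not tested. In bulk RNA, fewer cells expressing a gene and less of its RNA per cell cannot be told apart.

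Most of the chromatin genes were modestly lower after 12 h of LPS. At 1 h fewer members were called, and the largest change was that of the demethylase gene Kdm6b. Levels were compared as log2(FPKM + 1) with limma, and a gene was called at a Benjamini-Hochberg adjusted p under 0.05 over all 5643 tested genes. Against untreated cells, 9 members were higher at 1 h, 12 were lower and 29 were not called, where 24.1% of all tested genes were higher and 34.9% lower, 59.0% in all. The members' median log2 difference at 1 h was -0.02, and that of all tested genes was -0.03. Against untreated cells, 8 members were higher at 12 h, 35 were lower and 7 were not called, where 41.1% of all tested genes were higher and 40.6% lower, 81.7% in all. Thus 70% of the members were lower at 12 h. Their median log2 difference was -0.32, and that of all tested genes was 0.03. The count of 35 was the same whichever library was left out. The 1 h count of lower members was less firm: it was 7 without untreated library 2 and 7 without 1 h library 2.

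**Figure D1:**
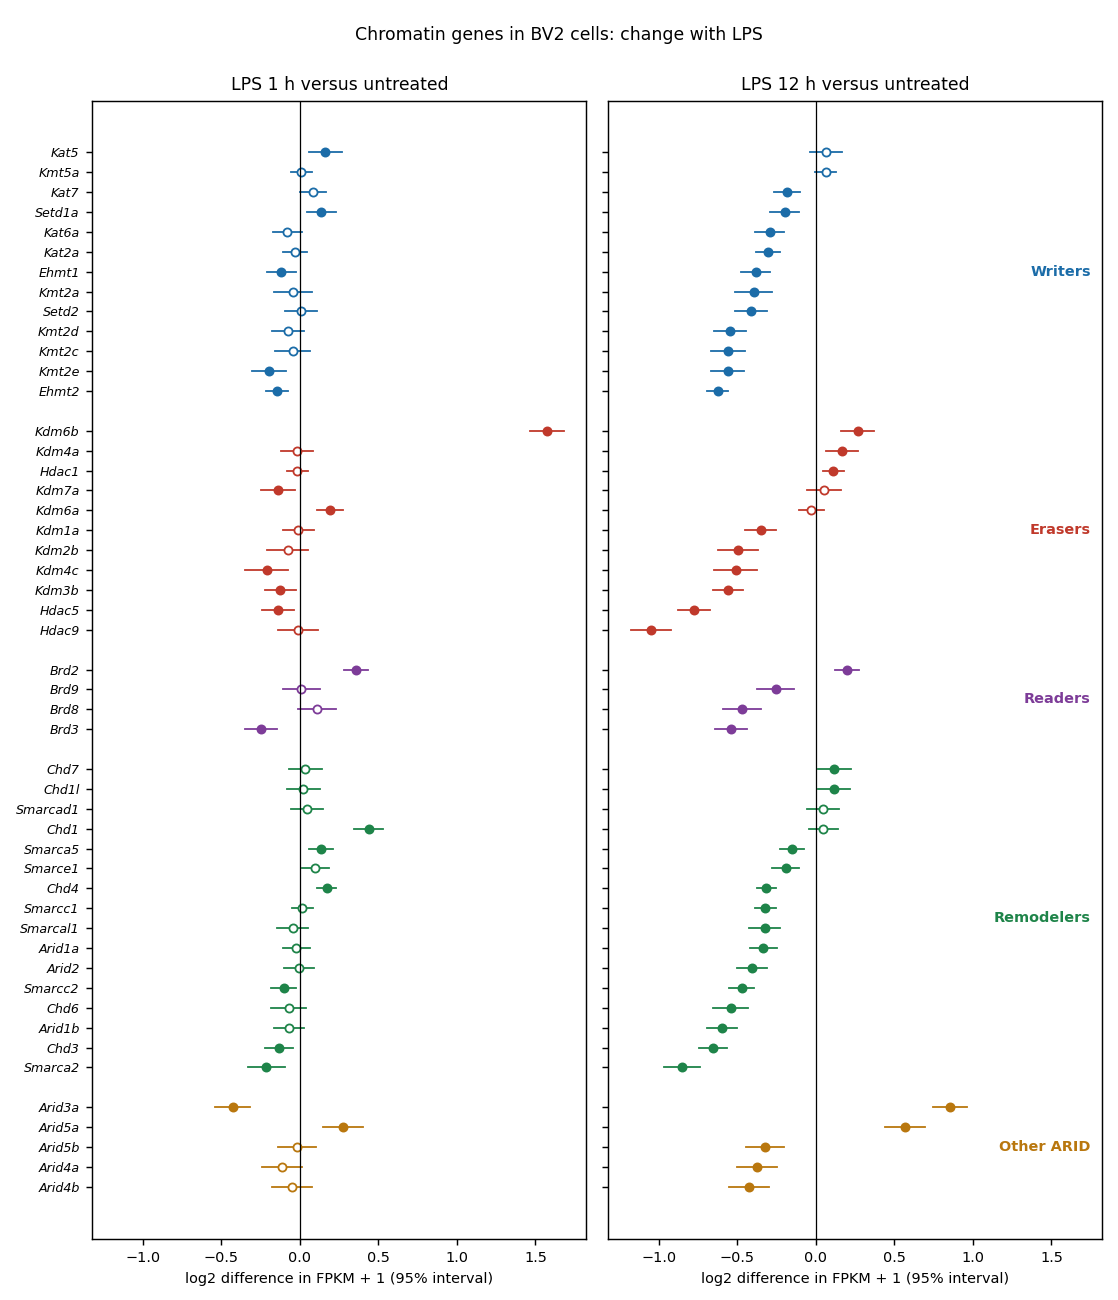
Log2 difference in FPKM + 1 of each member shown (points) with its 95% interval (lines), at 1 h (left) and 12 h (right) against untreated cells; filled points passed the limma test and open points did not. Kdm6b stands apart at 1 h, and at 12 h 35 filled points lie below 0.

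Large changes were few at 1 h. Counting changes of 0.5 or more on the log2 scale, which is 1.41-fold in FPKM + 1, 1 member was higher at 1 h (Kdm6b) and none was lower, against 4.84% and 4.27% of all tested genes. At 12 h, 2 members were higher by that size (Arid3a and Arid5a) and 13 were lower, against 11.9% and 17.4% of all tested genes. As a share of the listed FPKM, members held 0.336 to 0.346% in the untreated libraries, 0.335 to 0.345% in those at 1 h and 0.249 to 0.261% in those at 12 h. The share was lower in every 12 h library than in every other library, while the 1 h and untreated ranges overlapped. Both parts of this share moved. The listed total was 195872 to 198075 FPKM in the untreated libraries and 223720 to 228207 at 12 h. The members' own sum was 666 to 677 FPKM in the untreated libraries and 567 to 583 at 12 h. Over the 3 groups together, 45 of 50 members differed by limma's F test, where 94.3% of all tested genes did. Chd1l, Chd7, Kmt5a and Smarcad1 were among those not called.

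**Figure D2:**
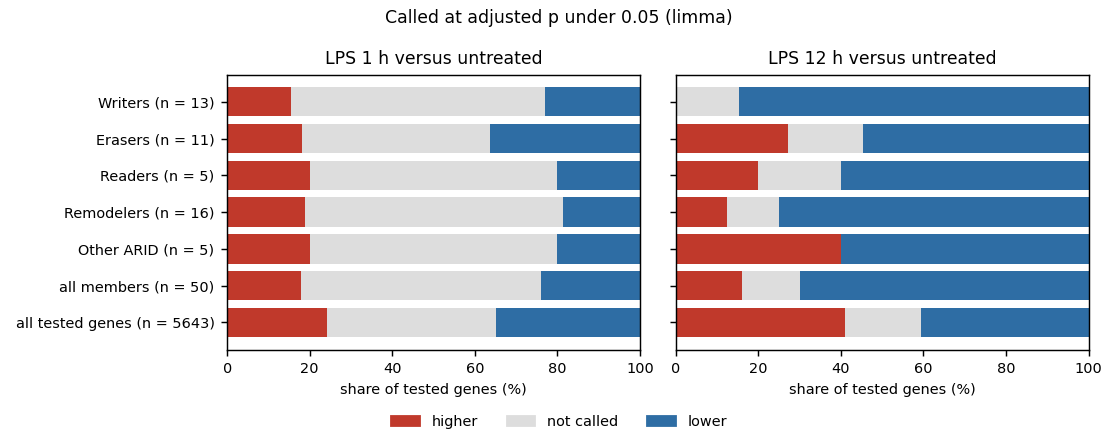
Share of each class (in %) that was higher (red), not called (grey) or lower (blue) than in untreated cells at 1 h and 12 h, with all 50 members and all 5643 tested genes at the bottom. The blue share grows between the left and right panels in every class, and no writer is red at 12 h.

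Every class had more members lower than higher at 12 h, with medians between -0.38 and -0.26. Among writers none was higher and 11 of 13 were lower, among remodelers 2 were higher and 12 of 16 lower, and among erasers 3 were higher and 6 of 11 lower. Of the readers 1 was higher and 3 of 5 lower, and of the other ARID genes 2 were higher and 3 of 5 lower. Median log2 differences at 12 h were -0.38 for writers, -0.35 for erasers, -0.26 for readers, -0.32 for remodelers and -0.32 for the other ARID genes. These classes are small and overlap widely, and no difference between classes was tested.

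**Figure D3:**
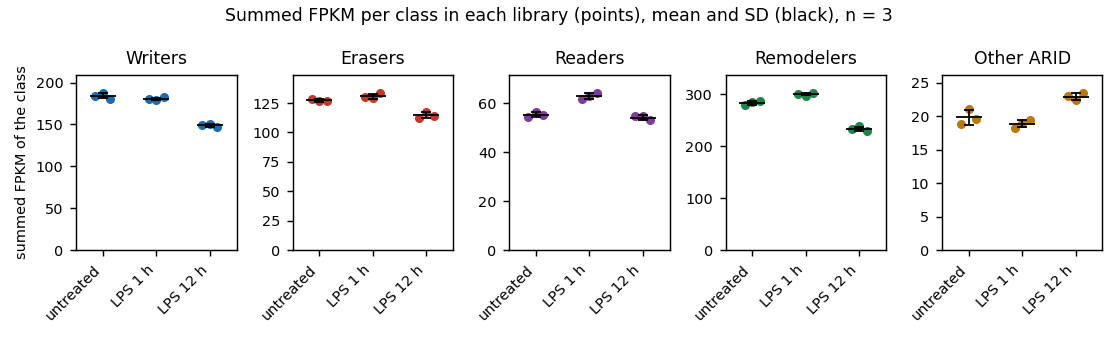
Summed FPKM of each class in every library (points) with the mean and SD (black, n = 3). Writers, erasers and remodelers have lower sums in all 12 h libraries than in any other library, while the other ARID genes have higher ones.

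Summed over the class, writers had 147 to 150 FPKM at 12 h, against 181 to 187 in untreated cells. Remodelers, the most abundant class, had 230 to 238 FPKM at 12 h, against 280 to 287 in untreated cells. Erasers had 112 to 118 FPKM at 12 h, against 127 to 128 in untreated cells. In these classes the ranges did not overlap. For readers, whose sum is mostly Brd2, the sums were 53.0 to 54.8 FPKM at 12 h and 54.3 to 56.3 in untreated cells, and overlapped. The other ARID genes went the other way, with 22.4 to 23.4 FPKM at 12 h, against 18.9 to 21.1 in untreated cells.

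Promoters are shown for 5 members with clear changes: Kdm6a and Arid5a, which rose at 1 h, and Ehmt2, Hdac9 and Smarca2, which were lower at 12 h. The windows run from 250 bases before to 50 bases after the RefSeq start (GRCm38.p6), 5′ to 3′ along the gene. Capitals mark matches on either strand to TGANTCA, the AP-1 form, or to ACGTG, the core of the hypoxia response element. Another window of Hdac9, not shown, holds no match, and another of Ehmt2, not shown, holds ACGTG. Matches are more frequent in the windows shown than over all windows of members, whose shares are given below.
Kdm6a, chrX:18162325-18162624, plus strand: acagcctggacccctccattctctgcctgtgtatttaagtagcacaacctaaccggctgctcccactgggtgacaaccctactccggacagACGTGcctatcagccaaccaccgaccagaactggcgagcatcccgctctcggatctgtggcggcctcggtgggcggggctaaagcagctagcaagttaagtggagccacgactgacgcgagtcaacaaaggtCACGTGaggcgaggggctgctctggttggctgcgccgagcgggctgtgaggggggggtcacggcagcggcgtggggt
Arid5a, chr1:36307483-36307782, plus strand: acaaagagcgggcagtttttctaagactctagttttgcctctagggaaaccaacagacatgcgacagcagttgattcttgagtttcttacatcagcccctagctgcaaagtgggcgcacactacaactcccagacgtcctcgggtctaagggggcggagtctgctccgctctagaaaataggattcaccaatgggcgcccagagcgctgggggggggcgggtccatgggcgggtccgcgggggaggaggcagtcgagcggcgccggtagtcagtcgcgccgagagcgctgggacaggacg
Ehmt2, chr17:34898224-34898523, plus strand: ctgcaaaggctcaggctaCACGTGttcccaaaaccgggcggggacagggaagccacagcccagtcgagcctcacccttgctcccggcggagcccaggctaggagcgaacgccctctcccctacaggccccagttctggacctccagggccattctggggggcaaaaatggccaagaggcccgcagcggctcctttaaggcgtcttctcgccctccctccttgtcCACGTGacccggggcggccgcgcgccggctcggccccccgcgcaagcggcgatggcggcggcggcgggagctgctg
Hdac9, chr12:34528840-34529139, minus strand: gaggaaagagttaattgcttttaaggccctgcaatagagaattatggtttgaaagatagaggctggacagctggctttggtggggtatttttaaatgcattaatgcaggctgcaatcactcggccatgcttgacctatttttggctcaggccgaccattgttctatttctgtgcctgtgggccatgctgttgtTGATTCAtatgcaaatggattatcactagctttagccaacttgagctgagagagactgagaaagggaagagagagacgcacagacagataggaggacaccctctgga
Smarca2, chr19:26604910-26605209, plus strand: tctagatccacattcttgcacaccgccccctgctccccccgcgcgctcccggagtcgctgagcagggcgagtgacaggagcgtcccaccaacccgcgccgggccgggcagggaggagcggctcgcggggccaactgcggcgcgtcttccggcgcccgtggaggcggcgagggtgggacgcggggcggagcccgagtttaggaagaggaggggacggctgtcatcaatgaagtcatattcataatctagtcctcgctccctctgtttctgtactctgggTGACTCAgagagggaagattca

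Of the 50 members 36 had an entry in the RefSeq promoter table, with 51 windows in all, since some genes have more than 1 start. The members' windows were rich in G and C, with a median of 64.7%, against 61.7% over the 5771 windows of tested genes and 52.7% over all 32851 windows of the table. An NF-kB form, GGGA and TTCC with 2 bases of any kind between them, was in none of the 51, in 1.73% of the windows of tested genes and in 1.47% of all windows. TGANTCA was in 3 of the 51, which is 5.88%, in Hdac9, Smarca2 and Kdm4a, in 5.39% of the windows of tested genes and in 7.81% of all windows. The cyclic AMP response element TGACGTCA was in none of the 51, in 3.21% of those of tested genes and in 1.79% of all. ACGTG was in 7 of the 51, which is 13.73%, in 26.96% of those of tested genes and in 19.62% of all. Both strands were searched, and a CACGTG reads as ACGTG on each strand, so 1 such palindrome gives 2 overlapping matches. No match says only that these letters are not in this window. Kat6a, Kdm3b, Kdm6b, Arid2, Arid3a, Arid4a, Brd8, Chd1, Chd3, Chd7, Hdac1, Kmt2e and Smarce1 were among those with no entry.

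Among writers of histone methylation, the members grouped with the families that methylate lysine 4 and lysine 9 of histone H3 were lower at 12 h. Of the 4 acetyltransferase genes among the members, 3 were lower too. Ehmt2, which encodes the H3K9 methyltransferase G9a, had 33.4, 32.7 and 32.9 FPKM in the untreated libraries, 29.0, 30.03 and 30.2 at 1 h and 20.9, 20.7 and 21.5 at 12 h. Every 12 h library lay below every 1 h library, and those below every untreated one. It fell at 1 h (-0.15, adjusted p = 0.00161) and further below untreated at 12 h (log2 difference -0.63 ± 0.03 SE, adjusted p = 2.4e-10; limma, as throughout). Its partner Ehmt1 (GLP) had 10.5, 10.99 and 10.3 FPKM in the untreated libraries, 9.95, 9.56 and 9.45 at 1 h and 7.65, 7.91 and 8.07 at 12 h. Here too the groups did not overlap. Ehmt1 was lower at 12 h (-0.38, adjusted p = 9.82e-07), and its small 1 h decrease (-0.12, adjusted p = 0.0268) did not pass without untreated library 2 (-0.09, adjusted p = 0.109), without 1 h library 2 (-0.11, adjusted p = 0.0709) or without 1 h library 3 (-0.11, adjusted p = 0.0811).

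The 5 members grouped with the H3K4 methyltransferase family were all lower at 12 h than in untreated cells. Most proteins of the family work in COMPASS-like complexes at promoters and enhancers. Its genes Kmt2b and Setd1b were not in the authors' preselected table, so these 5 are only part of the family. Kmt2c, an enhancer-associated member, had 4.96, 5.21 and 5.18 FPKM in the untreated libraries, 4.83, 4.75 and 5.19 at 1 h and 3.25, 3.25 and 2.95 at 12 h. Its 12 h libraries lay below the others, which overlapped each other, and it fell at 12 h (log2 difference -0.56 ± 0.05 SE, adjusted p = 1.34e-07). Its paralog Kmt2d averaged 4.75 ± 0.114 FPKM at 12 h, against 7.41 ± 0.325 in untreated cells (-0.55, adjusted p = 6.54e-08), and Kmt2a, the MLL1 gene, 4.77 ± 0.127 against 6.61 ± 0.261 (-0.40, adjusted p = 1.15e-05). Kmt2e, a SET-domain relative of the family, is counted as a writer by its symbol, but methyltransferase activity of its protein is not established. It had 7.33, 7.08 and 6.72 FPKM in the untreated libraries, 5.997, 5.97 and 6.07 at 1 h and 4.51, 4.68 and 4.15 at 12 h. It was lower at 1 h (-0.20, adjusted p = 0.00382) and lower still at 12 h (-0.56, adjusted p = 8.85e-08), with no overlap between groups. Setd1a, the catalytic subunit of a SET1 complex, went both ways, with 9.28, 9.02 and 9.59 FPKM in the untreated libraries, 10.2, 10.8 and 9.96 at 1 h and 7.91, 7.93 and 8.05 at 12 h. The 1 h libraries were the highest and the 12 h libraries the lowest. Its 1 h increase (0.14, adjusted p = 0.0144) did not pass without untreated library 2 (0.12, adjusted p = 0.0566) or without 1 h library 2 (0.11, adjusted p = 0.0715), whereas its 12 h decrease (-0.20, adjusted p = 0.00059) passed in every alternative run.

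Setd2, which trimethylates H3K36 behind elongating RNA polymerase II, averaged 12.7 ± 0.382 FPKM at 12 h, against 17.2 ± 1.116 in untreated cells (-0.41, adjusted p = 1.57e-06). At 1 h its difference was 0.01 with a 95% interval of -0.10 to 0.11. Kmt5a, which monomethylates H4K20, was the most abundant writer, with 36.5, 37.4 and 36.7 FPKM in the untreated libraries, 37.6, 36.9 and 36.9 at 1 h and 39.02, 39.2 and 37.4 at 12 h. The 1 h and untreated libraries overlapped, and the 12 h libraries lay slightly above the untreated ones. Kmt5a was not called at 1 h (0.01, adjusted p = 0.806) or later at 12 h (0.06, adjusted p = 0.0801), although at 12 h it passed with no filter on level (0.06, adjusted p = 0.0489) or without 12 h library 3 (0.08, adjusted p = 0.0359).

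The acetyltransferase gene Kat5, encoding TIP60 of the NuA4 complex, was the exception, with 8.25, 8.23 and 7.58 FPKM in the untreated libraries, 8.66, 8.98 and 9.61 at 1 h and 8.19, 8.51 and 8.57 at 12 h. Its 1 h libraries all lay above the untreated ones, and the 12 h libraries overlapped the untreated ones. Kat5 was higher at 1 h (log2 difference 0.16 ± 0.05 SE, adjusted p = 0.0109), a call lost without untreated library 3 (0.13, adjusted p = 0.0551) or without 1 h library 3 (0.12, adjusted p = 0.0549), and was not called at 12 h (0.06, adjusted p = 0.233), where it passed under quantile normalization (0.14, adjusted p = 0.0152). Kat2a, the GCN5 gene of the SAGA and ATAC complexes, averaged 17.96 ± 0.475 FPKM at 12 h, against 22.4 ± 0.235 in untreated cells (-0.31, adjusted p = 1.99e-06). Kat6a (MOZ) was lower at 12 h (-0.29, adjusted p = 1.89e-05), as was Kat7 (HBO1) (-0.18, adjusted p = 0.000459), and neither was called at 1 h, with differences of -0.08 and 0.08. With 1 library left out, the writers' 2 higher calls at 1 h became 1 without untreated library 2 or 3 or 1 h library 2 or 3. Their median of -0.04 at 1 h was -0.08 without 1 h library 3.

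Among erasers, the H3K27 demethylase gene Kdm6b was sharply higher at 1 h and slightly higher at 12 h. The class IIa deacetylase genes were lower at 12 h. Kdm6b, also called JMJD3, is known as an NF-kB target induced by LPS in mouse macrophages. It had 2.23, 2.04 and 2.26 FPKM in the untreated libraries, 8.27, 8.36 and 8.74 at 1 h and 2.71, 2.89 and 2.84 at 12 h. The 1 h libraries stood far above the others, and the 12 h libraries remained above the untreated ones without overlap. At 1 h it was 2.98-fold higher than untreated in FPKM + 1 (log2 difference 1.57 ± 0.05 SE, adjusted p = 2.26e-12), and at 12 h 1.20-fold higher (log2 difference 0.26 ± 0.05 SE, adjusted p = 0.000198; 0.41 under quantile normalization). An annotated transcript on the other strand, Kdm6bos, shares 286 exon bases with it, 4.3% of its longest transcript. Kdm6a (UTX), a further H3K27 demethylase gene, had 13.2, 13.2 and 12.3 FPKM in the untreated libraries, 15.02, 14.6 and 14.9 at 1 h and 12.6, 12.8 and 12.5 at 12 h. It was higher at 1 h (0.19, adjusted p = 0.000737), with no overlap, and was not called at 12 h (-0.03, adjusted p = 0.495), where its libraries overlapped the untreated ones.

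Hdac9 and Hdac5 encode class IIa deacetylases, which shuttle between nucleus and cytoplasm and repress MEF2 targets. Hdac9 had 1.88, 2.10 and 2.01 FPKM in the untreated libraries, 1.996, 1.92 and 1.99 at 1 h and 0.379, 0.517 and 0.444 at 12 h. The 12 h libraries were the only ones below 1 FPKM, and the 1 h and untreated libraries overlapped. Hdac9 is the 1 member with a group mean under the 1 FPKM filter, 0.447 ± 0.0687 FPKM at 12 h. It passed through its levels in the other libraries, so its 12 h difference is a description (log2 difference -1.05 ± 0.06 SE, adjusted p = 7.14e-10). That difference was -1.95 with a pseudocount of 0.1 FPKM in place of 1, and at 1 h it was -0.01 (95% interval -0.14 to 0.12). Hdac5 had 8.53, 8.63 and 8.12 FPKM in the untreated libraries, 7.78, 7.18 and 7.70 at 1 h and 4.31, 4.71 and 4.48 at 12 h, again with the 12 h libraries lowest and no overlap. It fell at 12 h (log2 difference -0.78 ± 0.05 SE, adjusted p = 1.74e-09), and its 1 h decrease (-0.14, adjusted p = 0.0221) did not pass under quantile normalization (-0.11, adjusted p = 0.0646), without untreated library 1 (-0.13, adjusted p = 0.061), without untreated library 2 (-0.13, adjusted p = 0.0714) or without 1 h library 2 (-0.11, adjusted p = 0.0981). Hdac1, the class I deacetylase of the NuRD, SIN3 and CoREST complexes, was the most abundant eraser, with 43.1, 41.9 and 42.9 FPKM in the untreated libraries, 41.3, 41.7 and 43.4 at 1 h and 44.8, 46.4 and 47.2 at 12 h. Its 12 h libraries lay above the rest, and the 1 h and untreated libraries overlapped. It was slightly higher at 12 h (0.11, adjusted p = 0.0055), but the direction turned under quantile normalization (-0.02, adjusted p = 0.566). At 1 h it was not called (-0.02, adjusted p = 0.687), but was called under quantile normalization (-0.09, adjusted p = 0.0355).

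The remaining demethylase genes mostly fell by 12 h. Kdm3b, which acts on H3K9, had 11.01, 11.7 and 10.7 FPKM in the untreated libraries, 10.3, 10.04 and 10.1 at 1 h and 7.54, 7.31 and 6.87 at 12 h. The groups did not overlap, the 12 h decrease passed (-0.56, adjusted p = 3.36e-08), and the 1 h decrease (-0.12, adjusted p = 0.0287) did not pass without untreated library 2 (-0.09, adjusted p = 0.125), without 1 h library 2 (-0.12, adjusted p = 0.0743) or without 1 h library 3 (-0.12, adjusted p = 0.0612). Kdm4c, a demethylase of H3K9 and H3K36, had 4.98, 5.93 and 5.73 FPKM in the untreated libraries, 4.69, 4.93 and 4.32 at 1 h and 3.39, 3.79 and 3.58 at 12 h. Its 12 h libraries were lowest without overlap (-0.51, adjusted p = 3.23e-06), and its 1 h decrease (-0.21, adjusted p = 0.0108) was lost under quantile normalization (-0.15, adjusted p = 0.0767), without untreated library 2 (-0.17, adjusted p = 0.0537) or without 1 h library 3 (-0.17, adjusted p = 0.0518). Its paralog Kdm4a had 10.7, 9.76 and 9.99 FPKM in the untreated libraries, 10.3, 9.83 and 9.78 at 1 h and 11.3, 12.2 and 10.998 at 12 h. At 12 h Kdm4a was higher than in untreated cells (0.17, adjusted p = 0.00545), with no overlap, and at 1 h it was not called (-0.02, adjusted p = 0.751). Kdm7a had 5.73, 6.13 and 6.06 FPKM in the untreated libraries, 5.30, 5.03 and 5.67 at 1 h and 6.36, 6.21 and 6.09 at 12 h. Only the 1 h libraries stood apart, below the untreated ones. That decrease (-0.14, adjusted p = 0.0262) was lost under quantile normalization (-0.08, adjusted p = 0.154), without untreated library 2 (-0.12, adjusted p = 0.0825), without untreated library 3 (-0.13, adjusted p = 0.0706), without 1 h library 1 (-0.14, adjusted p = 0.0619) or without 1 h library 2 (-0.10, adjusted p = 0.115), and at 12 h Kdm7a was not called (0.05, adjusted p = 0.345) except under quantile normalization (0.12, adjusted p = 0.025). Kdm1a (LSD1), the flavin-dependent H3K4 demethylase of CoREST, averaged 16.8 ± 0.775 FPKM at 12 h, against 21.8 ± 1.24 in untreated cells (-0.35, adjusted p = 5.8e-06), and Kdm2b, which brings a Polycomb complex to CpG islands, averaged 2.91 ± 0.229 against 4.52 ± 0.353 (-0.50, adjusted p = 2.38e-06). Neither was called at 1 h, with -0.01 and -0.08. Of the 4 erasers lower at 1 h, none was called without untreated library 2, 1 without 1 h library 2 and 2 without 1 h library 3.

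**Figure D4:**
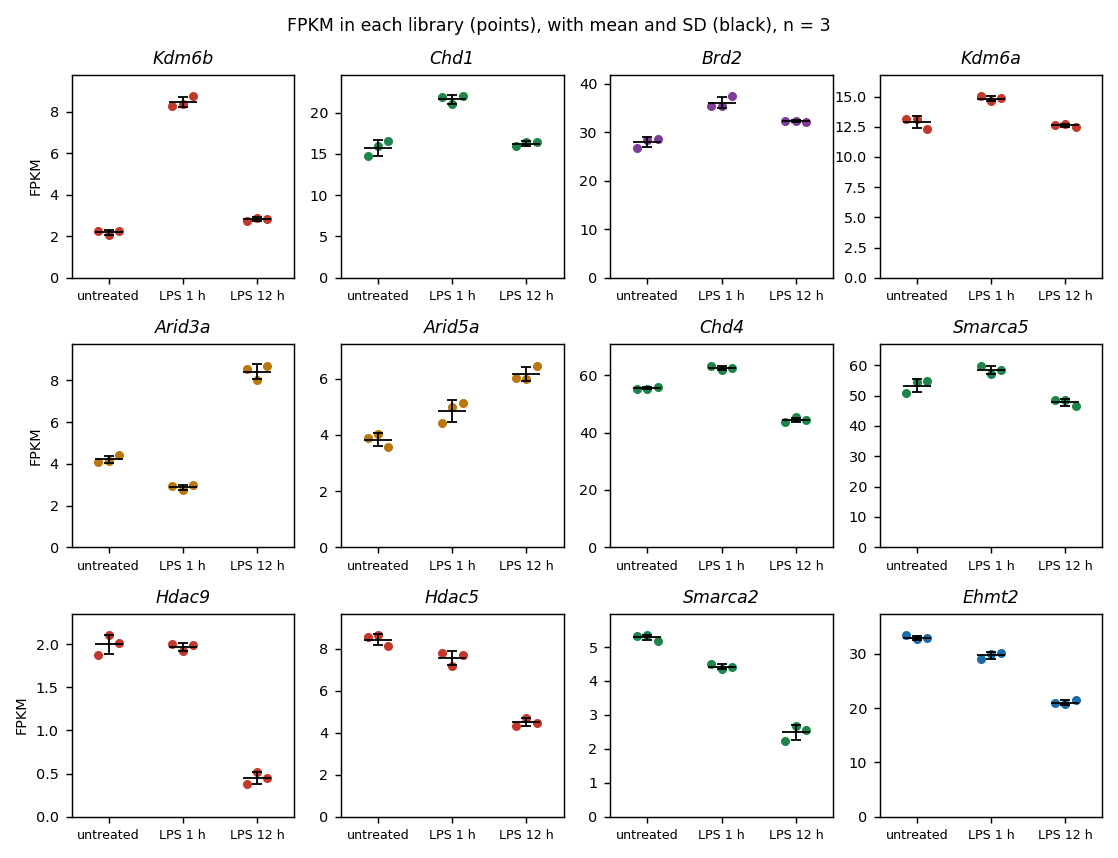
FPKM of 12 members in each library (points), with mean and SD (black, n = 3) for untreated cells and for 1 h and 12 h of LPS; each axis starts at 0. Kdm6b and Chd1 peak at 1 h, Arid3a dips at 1 h and is highest at 12 h, and Hdac9, Hdac5, Smarca2 and Ehmt2 are lowest at 12 h.

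The BET readers Brd2 and Brd3, which bind acetylated histones, went opposite ways. Brd2 had 26.8, 28.5 and 28.6 FPKM in the untreated libraries, 35.4, 35.5 and 37.4 at 1 h and 32.4, 32.3 and 32.01 at 12 h. The groups did not overlap, and the 1 h libraries were highest. It rose at 1 h (log2 difference 0.36 ± 0.04 SE, adjusted p = 1.07e-06) and was still higher than untreated at 12 h (0.20, adjusted p = 0.00011), by 0.12 under quantile normalization. Brd3 had 6.998, 6.90 and 6.70 FPKM in the untreated libraries, 5.29, 5.88 and 5.73 at 1 h and 4.47, 4.36 and 4.36 at 12 h, with the opposite order and no overlap. It fell at 1 h (-0.25, adjusted p = 0.000511) and further at 12 h (log2 difference -0.54 ± 0.05 SE, adjusted p = 7.69e-08).

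Outside the BET family, Brd8, a bromodomain subunit of NuA4, had 7.28, 7.46 and 7.40 FPKM in the untreated libraries, 7.85, 8.40 and 7.90 at 1 h and 5.33, 5.34 and 4.499 at 12 h. The 12 h libraries lay below all others, and the 1 h libraries lay above the untreated ones. Brd8 was lower at 12 h (log2 difference -0.47 ± 0.06 SE, adjusted p = 2.11e-06), and at 1 h it was not called (0.11, adjusted p = 0.104) except that it was called under quantile normalization (0.14, adjusted p = 0.0316) or without 12 h library 3 (0.11, adjusted p = 0.0444), which would make 2 readers higher at 1 h in place of 1. Brd9, of a SWI/SNF complex that lacks the ARID subunits, had 4.23, 4.72 and 4.35 FPKM in the untreated libraries, 4.20, 4.79 and 4.41 at 1 h and 3.43, 3.63 and 3.58 at 12 h. Only the 12 h libraries stood apart, and Brd9 was lower there (log2 difference -0.26 ± 0.06 SE, adjusted p = 0.000609; -0.13 under quantile normalization) and not called at 1 h (0.01, adjusted p = 0.908).

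Among the remodelers, the 7 members that belong to SWI/SNF were lower at 12 h, and Chd1, Chd4 and Smarca5 had their highest levels at 1 h. Smarca2 encodes BRM, a catalytic ATPase of SWI/SNF, and had 5.31, 5.34 and 5.19 FPKM in the untreated libraries, 4.49, 4.35 and 4.41 at 1 h and 2.23, 2.67 and 2.56 at 12 h. The groups did not overlap and each later time was lower. It fell at 1 h (-0.21, adjusted p = 0.00379) and had the largest decrease of the class at 12 h (log2 difference -0.85 ± 0.05 SE, adjusted p = 2.26e-09). Of the DNA-binding ARID subunits of SWI/SNF, Arid1b had 4.62, 4.51 and 4.67 FPKM in the untreated libraries, 4.31, 4.35 and 4.36 at 1 h and 2.73, 2.66 and 2.71 at 12 h. Its 12 h libraries were far below the others (-0.60, adjusted p = 1.58e-08), and its 1 h libraries, just below the untreated ones, gave a difference that did not pass (-0.07, adjusted p = 0.202). Its paralog Arid1a averaged 10.6 ± 0.335 FPKM at 12 h, against 13.7 ± 0.389 in untreated cells (-0.34, adjusted p = 2.17e-06), and Arid2, the subunit of the PBAF form, 10.1 ± 0.514 against 13.7 ± 0.421 (-0.41, adjusted p = 7.64e-07). At 1 h these differed from untreated cells by -0.02 and -0.01.

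The scaffold genes Smarcc1 and Smarcc2 and the HMG-box subunit gene Smarce1 were lower at 12 h as well. Smarcc2 had 15.1, 14.5 and 14.3 FPKM in the untreated libraries, 13.7, 13.3 and 13.7 at 1 h and 10.4, 10.3 and 10.1 at 12 h, without overlap between groups. It was lower at 12 h (-0.47, adjusted p = 2.6e-08), and the 1 h decrease (-0.10, adjusted p = 0.0279) did not pass without untreated library 1 (-0.09, adjusted p = 0.102) or without 1 h library 2 (-0.09, adjusted p = 0.0934). Smarcc1 averaged 35.6 ± 1.03 FPKM at 12 h, against 44.8 ± 0.644 in untreated cells (-0.32, adjusted p = 2.41e-07), with 0.01 at 1 h. Smarce1 averaged 17.5 ± 0.244 against 20.2 ± 0.972 (-0.19, adjusted p = 0.000448). At 1 h its difference (0.10, adjusted p = 0.0509) did not pass, except with array weights (0.11, adjusted p = 0.0312), without untreated library 1 (0.12, adjusted p = 0.0312) or without 1 h library 3 (0.12, adjusted p = 0.0379).

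Chd4, the ATPase of the NuRD deacetylase complex and the most abundant of the 50 members, had 55.3, 55.4 and 56.1 FPKM in the untreated libraries, 63.3, 62.0 and 62.6 at 1 h and 43.8, 45.3 and 44.4 at 12 h. The 1 h libraries were highest and the 12 h libraries lowest, without overlap. It rose at 1 h (log2 difference 0.17 ± 0.03 SE, adjusted p = 0.000141; 0.10 under quantile normalization) and was lower than untreated at 12 h (log2 difference -0.32 ± 0.03 SE, adjusted p = 9.06e-08). Chd3, the alternative NuRD ATPase, had 14.6, 13.8 and 14.4 FPKM in the untreated libraries, 12.8, 12.7 and 13.2 at 1 h and 8.91, 8.77 and 8.36 at 12 h. It fell without overlap at 1 h (-0.13, adjusted p = 0.0117) and by more at 12 h (-0.66, adjusted p = 1.71e-09). Chd1, which binds H3K4-methylated nucleosomes and acts during elongation, had 14.7, 15.9 and 16.5 FPKM in the untreated libraries, 21.9, 20.99 and 22.0 at 1 h and 15.9, 16.4 and 16.5 at 12 h. Its 1 h libraries stood above all others (0.44, adjusted p = 1.02e-06), and its 12 h libraries overlapped the untreated ones (0.05, adjusted p = 0.326). Smarca5 (SNF2H), the ISWI ATPase, had 50.7, 54.3 and 54.8 FPKM in the untreated libraries, 59.8, 57.1 and 58.4 at 1 h and 48.5, 48.4 and 46.5 at 12 h. Its 1 h increase (0.13, adjusted p = 0.00562) did not pass under quantile normalization (0.06, adjusted p = 0.198), and it was lower than untreated at 12 h (log2 difference -0.15 ± 0.04 SE, adjusted p = 0.00113; -0.29 under quantile normalization), without overlap at either time. The annotation also holds processed copies named Smarca5-ps and Smarce1-ps1, so how reads were divided between these and the 2 genes is uncertain.

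Chd7 and Chd1l were the only remodelers called higher at 12 h, and neither call was firm. Chd7, mutated in CHARGE syndrome in humans, had 4.29, 4.76 and 4.63 FPKM in the untreated libraries, 4.58, 4.70 and 4.78 at 1 h and 4.91, 5.17 and 5.001 at 12 h. Its 12 h libraries lay just above the untreated ones (0.12, adjusted p = 0.038), and the call was lost with array weights (0.10, adjusted p = 0.0596), in a fit of the 6 libraries compared (0.12, adjusted p = 0.0525), without untreated library 1 (0.08, adjusted p = 0.165), without untreated library 3 (0.13, adjusted p = 0.0534), without 12 h library 2 (0.10, adjusted p = 0.114) or without 12 h library 3 (0.12, adjusted p = 0.0663). Its difference was 0.21 under quantile normalization, where that of Chd1l was 0.18. Chd1l, a remodeler activated by poly(ADP-ribose) at DNA damage, had 8.40, 8.597 and 8.71 FPKM in the untreated libraries, 8.69, 8.72 and 8.75 at 1 h and 9.59, 9.95 and 8.64 at 12 h. The groups overlapped, and its 12 h call (0.12, adjusted p = 0.0373) was lost in a fit of the 6 libraries compared (0.12, adjusted p = 0.0575), without untreated library 1 (0.10, adjusted p = 0.097), without untreated library 2 (0.12, adjusted p = 0.0665), without untreated library 3 (0.13, adjusted p = 0.0512), without 12 h library 1 (0.10, adjusted p = 0.108) or without 12 h library 2 (0.08, adjusted p = 0.171). So 1 or none of the remodelers was higher at 12 h in those fits. Chd6 averaged 2.58 ± 0.147 FPKM at 12 h, against 4.22 ± 0.0635 in untreated cells (-0.54, adjusted p = 2.38e-07), and was not called at 1 h (-0.07). Smarcal1, which anneals DNA at stalled replication forks, was lower at 12 h (log2 difference -0.33 ± 0.05 SE, adjusted p = 1.15e-05; -0.21 under quantile normalization) and differed by -0.05 at 1 h. Smarcad1, which works in heterochromatin maintenance and DNA repair, differed by 0.04 at 1 h (95% interval -0.06 to 0.14) and by 0.05 at 12 h (-0.06 to 0.15), and was not called, except at 12 h under quantile normalization (0.12, adjusted p = 0.0247).

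The ARID proteins outside SWI/SNF held the only large increases at 12 h. Arid3a (Bright), a DNA-binding factor first known from immunoglobulin gene regulation in B cells, had 4.10, 4.15 and 4.40 FPKM in the untreated libraries, 2.93, 2.72 and 2.97 at 1 h and 8.56, 8.002 and 8.70 at 12 h. The 1 h libraries were lowest and the 12 h libraries highest, without overlap. It fell at 1 h (log2 difference -0.43 ± 0.05 SE, adjusted p = 6.16e-06) and was 1.81-fold higher than untreated in FPKM + 1 at 12 h (log2 difference 0.85 ± 0.05 SE, adjusted p = 1.09e-09). Arid5a, which in mouse macrophages stabilizes the mRNA of interleukin 6, had 3.89, 4.04 and 3.57 FPKM in the untreated libraries, 4.41, 4.97 and 5.15 at 1 h and 6.02, 6.003 and 6.45 at 12 h. Each later time was higher, without overlap, and both increases passed, that at 1 h (0.27, adjusted p = 0.0012) and the larger one at 12 h (log2 difference 0.57 ± 0.06 SE, adjusted p = 4.67e-07).

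The other 3 genes of this class were lower at 12 h. Arid4b, a subunit of the SIN3 deacetylase complex, had 4.21, 5.18 and 4.76 FPKM in the untreated libraries, 4.44, 4.63 and 4.46 at 1 h and 3.32, 3.25 and 3.16 at 12 h. Its relative Arid4a had 3.47, 4.19 and 3.81 FPKM in the untreated libraries, 3.41, 3.39 and 3.53 at 1 h and 2.70, 2.85 and 2.604 at 12 h. Arid5b, a partner of the demethylase PHF2, had 3.18, 3.52 and 3.02 FPKM in the untreated libraries, 3.11, 3.19 and 3.25 at 1 h and 2.36, 2.30 and 2.497 at 12 h. In all 3 genes the 12 h libraries were lowest, and the 1 h and untreated libraries overlapped. The 12 h decreases were called in Arid4b (-0.43, adjusted p = 1.04e-05), Arid4a (-0.37, adjusted p = 3.69e-05) and Arid5b (-0.32, adjusted p = 8.59e-05), the last at -0.20 under quantile normalization. At 1 h none of them was called, with -0.05, -0.11 and -0.02. Arid4a did pass at 1 h without untreated library 1 (-0.17, adjusted p = 0.0301), where the class median of -0.05 was -0.11.

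Between the LPS times, 5 members were higher and 39 lower at 12 h than at 1 h, and 6 were not called, where 41.9% of all tested genes were higher and 43.6% lower, 85.5% in all. The members' median log2 difference was -0.31, against 0.01 over all tested genes. Arid3a (1.28, adjusted p = 1.48e-11), Arid5a (0.29, adjusted p = 0.000307), Kdm4a (0.19, adjusted p = 0.00246), Kdm7a (0.19, adjusted p = 0.00245) and Hdac1 (0.13, adjusted p = 0.00206) were higher at 12 h than at 1 h. The Hdac1 call was lost under quantile normalization (0.07, adjusted p = 0.0736). Kdm6b had the largest decrease between these times (log2 difference -1.31 ± 0.05 SE, adjusted p = 1.07e-11), followed by Hdac9 (log2 difference -1.04 ± 0.06 SE, adjusted p = 9.87e-10; -1.93 with a pseudocount of 0.1). Chd1l, Chd7, Kat5, Kmt5a and Smarcad1 were among those not called. Of these, Chd1l was called under quantile normalization (0.13, adjusted p = 0.0167) or without 12 h library 3 (0.15, adjusted p = 0.0081), Chd7 likewise under quantile normalization (0.11, adjusted p = 0.0413), and Kat5 without 1 h library 1 (-0.13, adjusted p = 0.039).

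**Figure D5:**
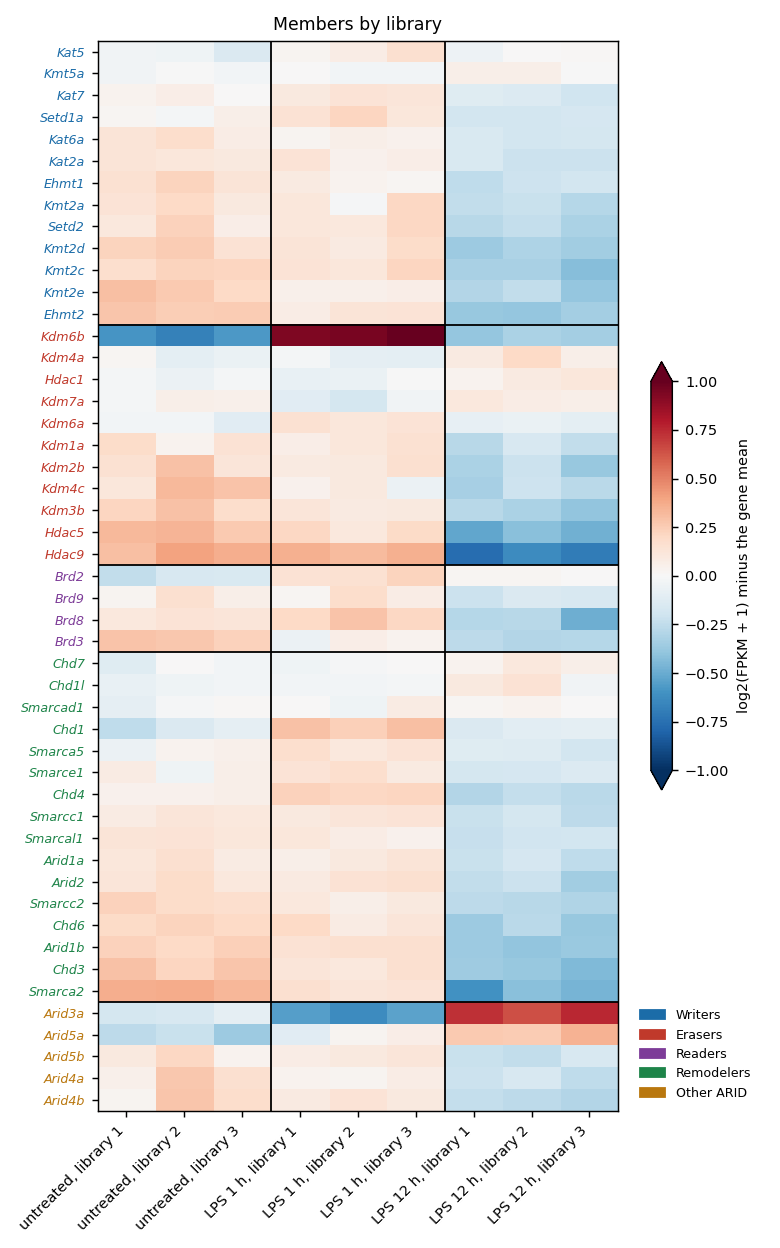
Log2(FPKM + 1) of each member shown minus its mean over the 9 libraries, as colour (red above, blue below), with members as rows in their classes and libraries as columns. Most rows are bluest in the 12 h libraries, while Kdm6b is red only at 1 h and Arid3a only at 12 h.

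Set side by side, the 1 h and 12 h calls against the shared untreated libraries sort the members into few kinds. The most frequent, no call at 1 h and a decrease at 12 h, held 22 members, 44% of them, where 16.2% of all tested genes had it. Lower at both times were 10 members, 20% of them, where 20.3% of all tested genes were: Ehmt1, Ehmt2, Kmt2e, Hdac5, Kdm3b, Kdm4c, Brd3, Smarca2, Smarcc2 and Chd3. Kdm6b, Brd2 and Arid5a were higher at both, 6% of the members, where 13.9% of all tested genes were. Chd4, Setd1a and Smarca5 were higher at 1 h and lower at 12 h, 6% of the members, where 4.15% of all tested genes were. Arid3a was the 1 member (2%) lower at 1 h and higher at 12 h, where 8.7% of all tested genes were. Kdm6a, Chd1 and Kat5 were higher at 1 h and not called at 12 h, 6% of the members, where 6.03% of all tested genes were. Kdm7a (2%) was lower at 1 h and not called at 12 h, where 5.94% of all tested genes were. Hdac1, Kdm4a, Chd7 and Chd1l were called higher at 12 h alone, 8% of the members, where 18.4% of all tested genes were. Kmt5a and Smarcad1 were among the 3 called at neither time, 6% of the members, where 6.33% of all tested genes were. Of the 21 calls at 1 h, 12 passed in every alternative that could test them, and of the 43 calls at 12 h, 40 did.

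Chromatin genes encode long transcripts, and length moved with the 12 h result. The median longest transcript of the members was 5892.5 bases in GENCODE M21, against 3299 over all tested genes with a length. Of the 804 tested genes that were not members and were at least as long as the members' median, 51.9% were lower and 27.2% higher at 12 h, with a median of -0.14. Of the 4650 shorter ones, 38.2% were lower and 44.0% higher, with a median of 0.05. Among the members, 19 of the 25 longer and 16 of the 25 shorter were lower at 12 h. The part of transcript length in the members' decrease was not tested.

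Exons shared with other genes could also touch single values, since the sources used here do not say whether counting used strand. In GENCODE M21, 20 members share exon bases with another gene, and in 5 the shared stretch is at least 10% of the longest transcript: Kdm3b with Gm26538 (54.5%), Setd1a with Gm49388 on the same strand (54.3%), Kat5 with Rnaseh2c (19.8%), Kmt2e with Srpk2 (13.3%) and Kdm2b with Rnf34 (12.1%). Without these 5 members, 31 of 45 were lower and 8 higher at 12 h.

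The wider chromatin machinery, under names that the rule does not match, was likewise lower more often than higher at 12 h. Of 230 genes in 13 lists, 127 were in the table and 125 were tested. Against untreated cells 73 were lower and 27 higher at 12 h, where 40.6% of all tested genes were lower and 41.1% higher, and the median of their log2 differences was -0.22. At 1 h, 35 were higher and 18 lower, where 24.1% of all tested genes were higher and 34.9% lower. These shares also stand behind the counts of each list, which are small. Polycomb repressive complex 2, which methylates H3K27 opposite to Kdm6b, had all 6 tested genes lower at 12 h, led by Aebp2 (-0.47) and Jarid2 (-0.45). At 1 h only Ezh2 (0.15), a catalytic gene, was called, as higher. The other catalytic gene, Ezh1, was not called at 1 h and was lower at 12 h (-0.41). In the PRC1 list 5 of 13 genes were higher and 5 lower at 1 h, where Cbx8 (-0.89) was among those that fell, and 9 were lower and 2 higher at 12 h. Of these Cbx2 (-0.83) and Cbx6 (-0.73) fell most, and Rybp (0.72), chosen after its value was seen, was higher. Asxl1 (0.18 at 1 h and -0.29 at 12 h) and Asxl2 (-0.37 and -0.35) are counted in this list, but they encode no known PRC1 subunits. Cbx8 averaged 2.10 FPKM in untreated cells, 0.678 at 1 h and 0.921 at 12 h. It passed the level filter through its untreated libraries, so its differences are a description.

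Among other acetyl-lysine readers, 7 of 13 tested genes were lower and 3 higher at 12 h, and the largest changes were increases of the nuclear body genes Sp100 (1.23) and Sp140 (0.87). At 1 h Yeats2 (-0.22) was lower and Bdp1 (0.34) higher. Bdp1 is counted in this list, but it encodes a subunit of an RNA polymerase III factor and is no known acetyl-lysine reader. Of SWI/SNF subunits under other names 3 of 6 were lower and 2 higher at 12 h, with Bcl7a (-0.87) and Phf10 (0.72) the largest in size, and Actl6a (0.15) was the 1 call at 1 h. The acetyltransferase subunits had 13 of 20 genes lower and 4 higher at 12 h, led by Ing4 (-0.87) and Tada3 (-0.57), and 7 higher and 3 lower at 1 h, led by Mbtd1 (0.45) and Ing4 (-0.41). Of 12 genes of heterochromatin and DNA methylation 7 were lower and 2 higher at 12 h, led by the DNA methyltransferases Dnmt3b (-0.63) and Dnmt1 (-0.54), and at 1 h Mbd4 (-0.39) and Cdca7 (-0.14) fell most. Dnmt3b averaged 1.48 FPKM in untreated cells, 1.60 at 1 h and 0.601 at 12 h. It passed the level filter through the earlier libraries, so its 12 h difference is a description.

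The NuRD list, partners of Chd3 and Chd4, was split, with 2 of 5 genes lower and 2 higher at 12 h; Mta1 (-0.49) and Gatad2b (-0.27) changed most, and Mta2 (0.10) was called at 1 h. The list of ISWI partners, INO80 and SRCAP had 6 of 13 genes higher and 1 lower at 1 h, led by Baz1a (0.48) and Ino80 (0.29). At 12 h 4 were higher and 7 lower, where Daxx (0.50) and Baz1b (-0.40) were the largest. Daxx is counted in this list, but it encodes a histone chaperone that is no known partner of these remodelers. Of 7 histone chaperones 3 were higher at 1 h, led by Nasp (0.16) and Asf1a (0.16), and 6 were lower and 1 higher at 12 h, led by Asf1a (-0.33) and Anp32e (-0.31). Of 13 sirtuins and deacetylase corepressors 8 were lower and 2 higher at 12 h, led by Rcor2 (-0.46) and Rcor1 (-0.45), and at 1 h 4 were lower and 2 higher, led by Rcor2 (-0.49) and Mier1 (0.39). COMPASS subunits had 2 of 4 genes lower and 1 higher at 12 h, with Paxip1 (-0.43) and Psip1 (-0.42), and none called at 1 h. Other JmjC proteins had 2 of 4 lower at 12 h, Phf8 (-0.74) and Phf2 (-0.43), and Hif1an (0.14) higher at 1 h. Other histone methyltransferases were the 1 list with more genes higher than lower at 12 h, 4 against 2 of 10; Prmt2 (0.64) was higher and Ash1l (-0.44) lower there, and at 1 h Prmt2 (-0.35) was lower and Prmt6 (0.18) higher. Values in brackets are log2 differences from untreated cells, and each gene named passed the limma test.

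The genes below the level filter were not tested. Hdac7, a further class IIa deacetylase, averaged 0.429 FPKM in untreated cells, 0.157 at 1 h and 0.0474 at 12 h. Chd5 averaged 0.989 FPKM in untreated cells, 0.438 at 1 h and 0.820 at 12 h, and Hdac8 averaged 0.910 FPKM in untreated cells, 0.841 at 1 h and 0.576 at 12 h. Arid3b, a paralog of Arid3a, averaged 0.419 FPKM in untreated cells, 0.389 at 1 h and 1.004 at 12 h. Setd4 and the testis gene Brdt stayed below 0.4 FPKM in each library. Just inside the filter, the member with the lowest mean was Hdac9 (1.47 FPKM over the 9 libraries), and just outside it the gene with the highest was Hdac8 (0.775 FPKM). The demethylase gene Kdm3a, left out by the rule, averaged 10.2 FPKM in untreated cells, 9.07 at 1 h and 6.18 at 12 h.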

How the data were processed

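RNA from 9 BV2 libraries (3 untreated, 3 at 1 h and 3 at 12 h of LPS) was sequenced from libraries made with a stranded mRNA kit, per the labels' protocols. Per the submitters' processing notes, the authors used DESeq, HTSeq, Cufflinks, HISAT2 and Trimmomatic, whose versions and roles are not given in the sources used here. The notes also name the human build GRCh38, yet the symbols are those of mouse, so the build is unclear. The authors deposited 1 table of FPKM per gene. Per the file headers, further columns give a ranking score, a flag (1 throughout), a p-value and a q-value. No deposited q-value exceeds 0.0999, so the table was selected on these libraries. These columns were not used to call genes.

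A log2(FPKM + 1) scale (pseudocount 1, which shrinks differences of low genes) was modelled by limma 3.58.1 (R 4.3.3) using 1 mean per group, eBayes with trend, all 9 libraries and the 5643 genes with a mean of at least 1 FPKM. P-values were adjusted by Benjamini-Hochberg over these genes, and because the table was preselected they are no false discovery rate over the transcriptome. Positive differences mean higher after LPS, or at 12 h against 1 h. Whether the 3 libraries of a group are separate cultures is not in the labels. The p-values therefore reflect the spread among these libraries alone, which may be technical. Code was tested on simulated data. Members, classes and gene lists were chosen with earlier results of these data known. Values in every library are given for the 3 largest called increases and decreases of each class at each time, the most abundant member of each class, and members called both ways with differences of at least 0.3. From each other chromatin list the 2 largest called changes at each time are named. Transcript lengths and overlaps came from GENCODE M21, and promoters from RefSeq (GRCm38.p6). Single values of 1 member, which stays in the counts and class sums, and of 1 gene of the other lists are not reported here. Protein sequences and genes outside the table were not used here.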

Additional observations from a re-analysis of the deposited data

Results flagged for a closer look

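The effects of LPS at 1 h and 12 h differed in direction in 4 members that passed the test at each time. Higher at 1 h and lower at 12 h were 6% of the members, where 4.15% of all tested genes were. The reverse held for 2% of the members and 8.7% of all tested genes. These 4 members were picked for opposite calls against the same untreated libraries, so the difference between the times (limma, 12 h minus 1 h) follows from that choice and is a description. Arid3a was lower than untreated at 1 h and higher at 12 h, and the times differed by 1.28 on the log2 scale (adjusted p = 1.48e-11). Chd4 was higher at 1 h and lower at 12 h, and the times differed by -0.49 (adjusted p = 9.35e-10). Setd1a went the same way as Chd4, with -0.33 between the times (adjusted p = 4.8e-06), and so did Smarca5, with -0.28 (adjusted p = 3.74e-06). Groups of 3 libraries are too small to test for outlying libraries.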

How the results depend on the processing

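Results were recomputed with pseudocounts of 0.5 and 0.1, without the filter or with one at 5 FPKM, under 2 other scalings (median of ratios and quantile), with array weights, with no trend in eBayes, on the 6 compared libraries alone, with library number as block, and with each library left out in turn. Passing in all alternatives that could test them were 12 of 21 member calls at 1 h, 40 of 43 at 12 h and 43 of 44 for 12 h versus 1 h. Library numbers did not pair the libraries (correlations of residuals -0.067 to 0.128), and the replicate block left the counts at 21, 43 and 44 members called. The cause of the following shifts was not tested, apart from filters, which leave fewer members. Restricted to a mean of 5 FPKM or more, counts came to 1 eraser higher at 1 h (was 2), 0 other ARID genes higher at 1 h (was 1), 28 members called at 12 h (was 43), 5 members higher at 12 h (was 8), 23 members lower at 12 h (was 35), 3 erasers lower at 12 h (was 6), 1 remodeler higher at 12 h (was 2), 1 other ARID gene higher at 12 h (was 2), 0 other ARID genes lower at 12 h (was 3), 4 erasers lower for 12 h versus 1 h (was 8), 1 other ARID gene higher for 12 h versus 1 h (was 2) and 0 other ARID genes lower for 12 h versus 1 h (was 3). In that setting medians came to -0.43 for other ARID genes at 1 h (was -0.0491), -0.34 for writers at 12 h (was -0.38), -0.0287 for erasers at 12 h (was -0.35), 0.85 for other ARID genes at 12 h (was -0.32), -0.22 for erasers for 12 h versus 1 h (was -0.34) and 1.28 for other ARID genes for 12 h versus 1 h (was -0.26). Under quantile normalization, counts came to 2 erasers lower at 1 h (was 4), 2 readers higher at 1 h (was 1), 1 writer higher at 12 h (was 0) and 2 remodelers higher for 12 h versus 1 h (was 0). In that setting medians came to 0.0911 for readers at 1 h (was 0.0102), -0.33 for writers at 12 h (was -0.38), -0.13 for readers at 12 h (was -0.26), -0.20 for other ARID genes at 12 h (was -0.32) and -0.29 for writers for 12 h versus 1 h (was -0.33). With no filter on level, the count came to 1 writer higher at 12 h (was 0). With array weights, the count came to 1 remodeler higher at 12 h (was 2). In a fit of the 6 libraries compared, the count came to 0 remodelers higher at 12 h (was 2). With pseudocount 0.1, medians came to -0.36 for members at 12 h (was -0.32), -0.42 for writers at 12 h (was -0.38), -0.31 for readers at 12 h (was -0.26), -0.43 for other ARID genes at 12 h (was -0.32), -0.35 for members for 12 h versus 1 h (was -0.31), -0.32 for readers for 12 h versus 1 h (was -0.26) and -0.33 for other ARID genes for 12 h versus 1 h (was -0.26). With pseudocount 0.5, medians came to -0.35 for members at 12 h (was -0.32) and -0.34 for members for 12 h versus 1 h (was -0.31). Leaving out 1 library at a time, counts came to 7 to 12 members lower at 1 h, 1 to 2 writers higher at 1 h, 0 to 4 erasers lower at 1 h, 1 to 2 readers higher at 1 h, 1 to 2 other ARID genes lower at 1 h, 0 to 1 writers higher at 12 h, 0 to 2 remodelers higher at 12 h and 0 to 1 remodelers higher for 12 h versus 1 h. In that setting medians came to -0.0784 to -0.0137 for writers at 1 h, -0.11 to 0.00867 for other ARID genes at 1 h, -0.40 to -0.32 for erasers at 12 h and -0.37 to -0.31 for erasers for 12 h versus 1 h. Under quantile normalization Hdac1 at 12 h turned to -0.021 (adjusted p = 0.566).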
